A study of Mus musculus with 24 samples.

Results

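The effect of losing tRNA-Phe-1-1 on the brain transcriptome was examined in 6 samples, 3 from tRNA-Phe-1-1-/- mice and 3 from wild-type (WT) mice, out of 24 RNA-seq samples in the series. The members were taken by genotype and tissue from the sample titles. The paper describes 10-week-old mice on a C57BL/6N background. Its methods name male mice, while its reporting summary states that both sexes were used in the study. The knockouts were homozygous for a small CRISPR deletion inside the tRNA gene. WT controls were matched by age, and each sample was brain RNA. The methods mention littermate matching and also mice from different litters, so litter matching of these samples is not settled. The labels mention small tissue pieces for homogenates, and which part of the brain gave the RNA is not given in the sources used here. The brain samples of 2 further lines, with 3 samples of tRNA-Phe-2-1-/- mice and 3 of tRNA-Phe-3-1-/- mice, shared the estimate of the spread and served as a second reference. The 4 groups differed by the tRNA gene deleted, and the labels gave no treatment. One guide had been injected against the whole tRNA-Phe family and the single deletions were then separated by backcrossing, so the deletion and anything else fixed in a line cannot be told apart. Replicates were called separate samples by the titles.

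tRNA-Phe carries phenylalanine to ribosomes and reads the codons TTT and TTC through its GAA anticodon. tRNA-Phe-1-1 belongs to the subfamily with several identical copies in the mouse genome, whereas tRNA-Phe-2 and tRNA-Phe-3 have a single gene each. When charged tRNA runs short, ribosomes can pause, kinases such as GCN2 can raise ATF4, and misfolded protein can engage heat shock proteins in the cytosol or the unfolded protein response in the endoplasmic reticulum (ER).

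The guide used to make the line and the bases it removed are shown because they define the genotype. Its site with the PAM occurred once on chromosome 5 (GRCm39, minus strand), within the tRNA gene at chr5:125483146-125483168. The other chromosomes, which hold further copies of the family, were not searched. In the first window below (chr5:125483116-125483198) capitals mark the guide, and in the second they mark the 20 deleted bases (chr5:125483132-125483151), which run from the last bases of the guide into the 3′ part of the tRNA gene.
Guide site: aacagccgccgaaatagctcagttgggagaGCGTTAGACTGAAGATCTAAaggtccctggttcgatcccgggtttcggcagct
Deleted bases: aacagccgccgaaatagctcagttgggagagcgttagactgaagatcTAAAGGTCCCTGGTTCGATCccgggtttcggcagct
The table of genes held 0 of the 7 nuclear tRNA-Phe genes in the annotation, so the deletion itself was not measured here. In GRCm38.p6, the build of the files, RefSeq places the gene at chromosome 5, 125406055 to 125406127.

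The expression of the genes around the deletion was checked first. None of the 3 tested protein-coding genes nearest on either side passed the threshold (0 of 6 by limma, 2 at an unadjusted p under 0.05, 0 by edgeR and by DESeq2). Across the transcriptome, 3063 of 19228 genes tested reached an unadjusted p under 0.05. Dhx37, an RNA helicase gene 7620 bases away, had a mean of 386 ± 25.5 normalised counts (SD, n = 3) in WT brains and 421 ± 107 in tRNA-Phe-1-1-/- brains. The 2 genes under the unadjusted threshold were Bri3bp, with a log2 fold change of -0.21 ± 0.08 (SE), and Scarb1, the HDL receptor gene, with 0.46 ± 0.21.

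The brain samples held 30365760 to 46225360 reads, as recovered from the normalised counts. Neuronal and glial defining genes were present in all 6 samples, with 50339 to 67237 normalised counts of Snap25 and 1620 to 3797 of Gfap. Markers of brain regions and of other tissues differed between samples of 1 genotype, as the heat map of marker lists shows. Drd1, a receptor of striatal neurons, stood at 305 in tRNA-Phe-1-1-/- replicate A against 4619 and 5318 in replicates B and C, and Cdhr1, a gene of olfactory bulb neurons, at 1075 against 262 and 229. Ttr, the main product of the choroid plexus, stood at 5965, 486 and 12103 in WT replicates A, B and C and at 84.8, 13.5 and 5.01 in the knockout. Summed counts of 10 kidney genes (a list chosen after values were seen) were 429, 33.8 and 79.0 in WT and 16.0 to 17.7 in the knockout. Only 2 of these genes were tested, Kap (0 in all 3 knockout samples and 8.46 to 191 in WT) and Slc34a1 (0 to 1.00 and 10.6 to 116). Both were called lower. Their means over the 12 brain samples, 19.3 and 13.6, reached the minimum of 10 through their WT counts. The direction of these calls was thus fixed by the filter, and they lend no support to a difference. The summed counts of 10 liver genes, a list chosen in the same way, ranged from 273 to 1198 in WT and from 36.4 to 1930 in the knockout. Their part in the results below was not tested, and counts of called genes are given with libraries left out.

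**Figure D1:**
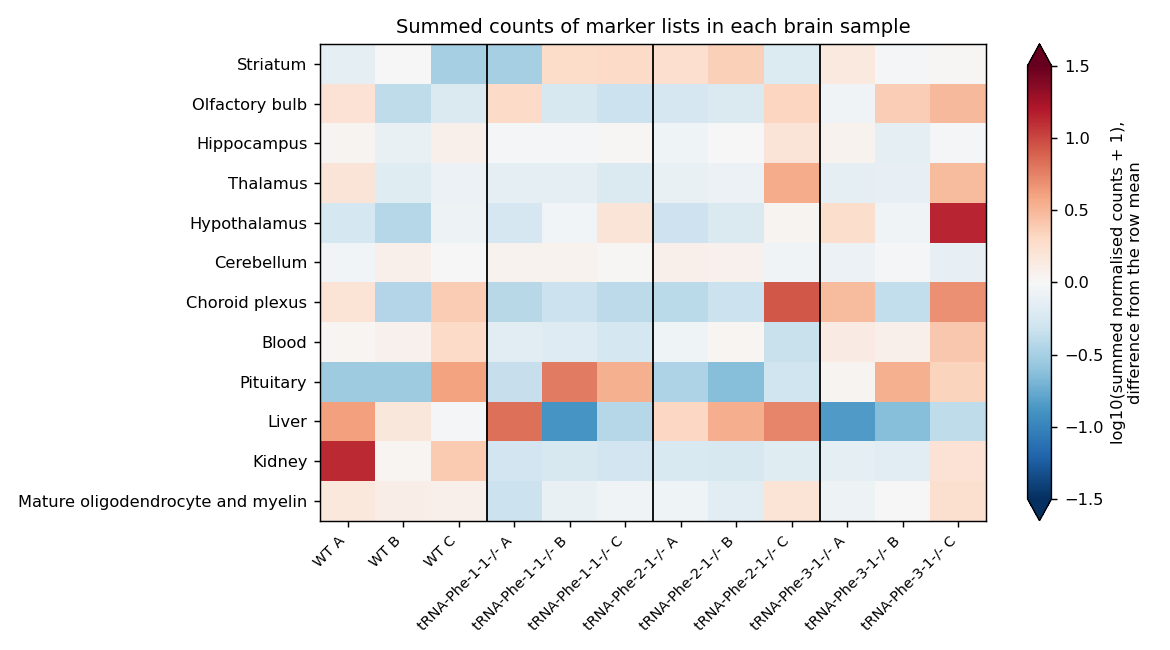
Heat map of marker lists (rows) in the 12 brain samples (columns), coloured by log10(summed normalised counts + 1) minus the row mean. The libraries of each genotype differed among themselves, with tRNA-Phe-1-1-/- replicate A low for striatal genes, WT replicate A high for kidney genes and WT replicates A and C high for choroid plexus genes against the 3 tRNA-Phe-1-1-/- samples.

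Loss of tRNA-Phe-1-1 was next compared with WT across the transcriptome. Of 19228 genes tested, 202 (1.05%) passed an adjusted p under 0.05 (limma, two-sided, Benjamini-Hochberg), 120 higher (0.624%) and 82 lower (0.426%) in the knockout. The rises included genes that are known to respond to glucocorticoids, cytosolic heat shock genes and ER chaperone genes. The falls included Opalin, the 1 called member of the mature oligodendrocyte list. Among blood vessel genes Cldn5 fell while Ly6c1 rose. The neuronal genes Syt2 and Rorb fell, in GABA and glutamate neuron lists with medians of 0.13 and -0.20. The plot of fold change against mean count shows where these groups lie. The median log2 fold change of all genes tested was -0.0006. The count depended on each library: it was 74 without WT replicate A, 26 without WT replicate B, 5 without WT replicate C, and 163, 24 and 9 without tRNA-Phe-1-1-/- replicates A, B and C. All 202 genes had groups that did not overlap, so leaving out 1 library could not turn their sign. Their sign was also kept in the other alternatives run. Only 3 genes (Fkbp5, Mfsd2a and an unnamed Ensembl gene) passed in every one of these 6 fits. Of the 77 called genes that the naming rule selected, 33, 20 and 4 still passed without WT replicates A, B and C, and 55, 18 and 9 without tRNA-Phe-1-1-/- replicates A, B and C. For a single gene, 3 against 3 samples allow no two-sided exact permutation p below 0.1.

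**Figure D2:**
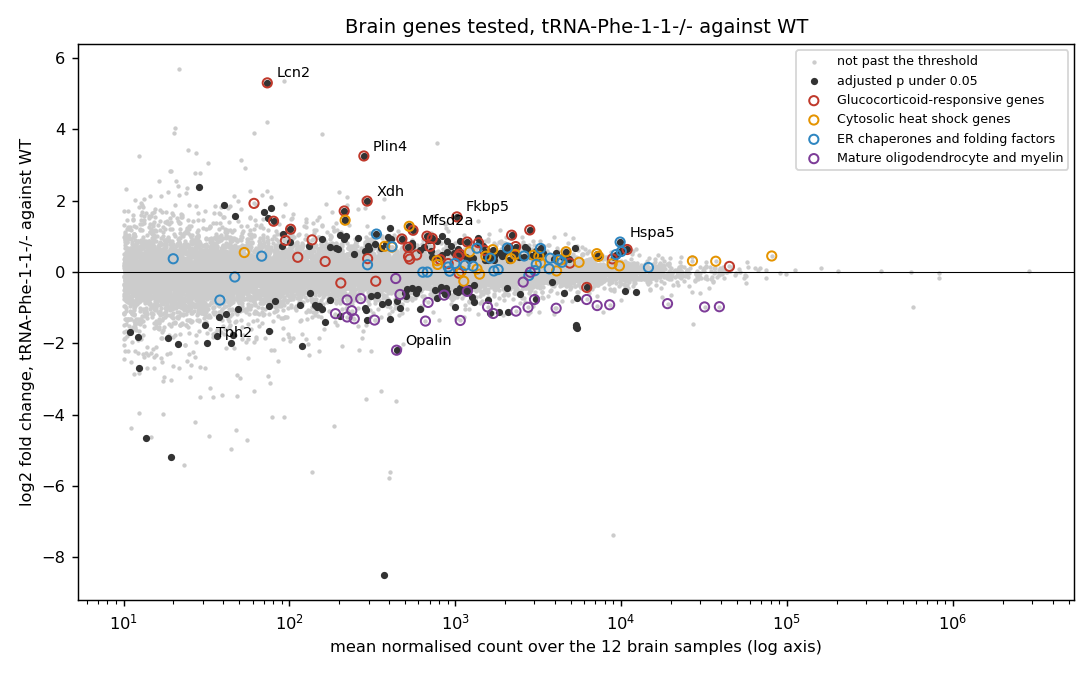
Each point is one of the 19228 brain genes tested, with its mean normalised count over the 12 brain samples (horizontal, log axis) and its log2 fold change in tRNA-Phe-1-1-/- against WT brains (vertical). Dark points are the 202 genes past the threshold, and open circles mark 4 lists, of which the oligodendrocyte list lies below 0 throughout and the other 3 lie mostly above it.

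To separate changes of this line from those of tRNA-Phe knockouts in general, the tRNA-Phe-1-1-/- brains were also compared with the mean of the other 2 knockout lines, a contrast without WT samples. Here 469 genes (2.44%) passed, 303 higher (1.58%) and 166 lower (0.863%) in tRNA-Phe-1-1-/- brains. Of the 202 genes called against WT, 141 were called in this contrast in the same direction (94 higher and 47 lower). The same 3 tRNA-Phe-1-1-/- samples enter both contrasts, so this number is not independent support. The count against the other lines fell to 190, 48 and 69 without tRNA-Phe-1-1-/- replicates A, B and C, and to 281, 266 and 306 without tRNA-Phe-2-1-/- replicates A, B and C. It was 350, 463 and 332 without tRNA-Phe-3-1-/- replicates A, B and C.

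The gene with the lowest p was an Ensembl entry with no symbol (ENSMUSG00000104896.1). It was listed at 0 in all 3 tRNA-Phe-1-1-/- brains and at 284, 516 and 317 normalised counts in WT replicates A, B and C. Its mean was 724 ± 584 (SD, n = 3) in tRNA-Phe-2-1-/- brains and 401 ± 44.9 in tRNA-Phe-3-1-/- brains, and the adjusted p against WT was 7.84e-06. In the liver it was listed at 1444 to 1704 in the 3 tRNA-Phe-1-1-/- samples, so the entry was not at 0 throughout the line.

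Of the 120 genes that rose, 18 belonged to a list of genes that respond to glucocorticoids. These steroid hormones act through the receptor encoded by Nr3c1, and the list of 40 genes is known from several tissues, the brain included. This list and those below were chosen with earlier results of these data known. Counts of their members therefore describe the lists and are no independent support for a shift of a pathway or cell type. Of the 40 members, all tested, 18 rose and 1 fell, against 0.624% and 0.426% of all genes tested. In every knockout sample against every WT sample, 31 were higher and 1 lower. Of all genes tested, 25.2% had groups that did not overlap, 12.8% higher and 12.4% lower. The median log2 fold change of the list was 0.70. Against the other 2 knockouts it was 0.83, and 24 members were called higher, against 1.58% of all genes tested. The count of 19 called members was 8, 5 and 2 without WT replicates A, B and C and 13, 4 and 3 without tRNA-Phe-1-1-/- replicates A, B and C, while the median stayed between 0.60 and 0.76.

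Fkbp5, a co-chaperone that damps the glucocorticoid receptor (chromosome 17, 28398753 to 28486149), stood at 642, 586 and 658 normalised counts in WT replicates A, B and C. In the tRNA-Phe-1-1-/- replicates it stood at 1462, 2239 and 1880. Every knockout sample lay above every WT sample, and the log2 fold change was 1.54 ± 0.17 (SE, adjusted p = 0.00813). Tsc22d3, which encodes the anti-inflammatory protein GILZ, rose from 2701, 1801 and 2255 to 4134, 5712 and 5384 (1.18 ± 0.23, adjusted p = 0.0407). Sgk1, a kinase that controls ion transport, rose from 1686, 1824 and 1612 to 2476, 4433 and 3858 (1.03 ± 0.18, adjusted p = 0.0318). In all 3 genes replicate A was the lowest of the knockout samples and still lay above the highest WT sample.

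Plin4, a coat protein of lipid droplets, showed the largest rise among genes called above 100 mean counts. It stood at 104, 75 and 84.7 in WT and at 588, 974 and 1025 in tRNA-Phe-1-1-/- brains (log2 fold change 3.25 ± 0.39, adjusted p = 0.0107). Its mean was 88.4 in tRNA-Phe-2-1-/- brains and 86.3 in tRNA-Phe-3-1-/- brains. Mfsd2a, the transporter of lysophospholipids with docosahexaenoic acid at the blood-brain barrier, rose from 468, 452 and 340 to 961, 972 and 880 (1.17 ± 0.13, adjusted p = 0.00813). Xdh, the xanthine oxidase gene, rose, with 148 to 165 in WT and 471 to 786 in the knockout (1.99 ± 0.26, adjusted p = 0.0126). Lcn2, a secreted iron-siderophore binder of the acute phase, stood at 0.855, 2.11 and 23.7 in WT and at 221, 485 and 80.2 in the knockout (5.30 ± 1.07, adjusted p = 0.0470). The 3 knockout values lay above WT but were uneven, and Lcn2 was the 1 called member of 25 acute phase and reactive glia genes tested. It did not pass with any one of the 6 libraries left out.

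Angptl4, an inhibitor of lipoprotein lipase, Sult1a1, a sulfotransferase, Slc2a1, the glucose transporter of the blood-brain barrier, Ddit4, an inhibitor of mTORC1, Nfkbia, the inhibitor of NF-kappa B, and Mertk, a receptor for the uptake of dying cells, also rose, by 1.42, 1.71, 0.82, 0.94, 0.92 and 0.84 on the log2 scale. Fam107a, Errfi1 and Mknk2 rose by 0.63, 0.44 and 0.50. The metallothioneins Mt1 and Mt2, which bind zinc and copper, rose by 0.71 ± 0.11 and 1.00 ± 0.15, and Mt3, the neural member, had 0.32 ± 0.09 (adjusted p = 0.117). Of these 3 genes, 1 passed without WT replicate A, 2 without tRNA-Phe-1-1-/- replicate A and 0 without any other library. The receptor gene Nr3c1 went the other way, from 6922, 7485 and 7870 in WT to 5611, 5327 and 5534 (fell by 0.43 on the log2 scale, adjusted p = 0.0318), but its mean in the tRNA-Phe-3-1-/- line was 5393. Other members did not pass, among them Per1 (0.24 ± 0.26), Klf9 (0.37 ± 0.14), Zbtb16 (-0.04 ± 0.28) and Pdk4 (-0.31 ± 0.23).

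**Figure D3:**
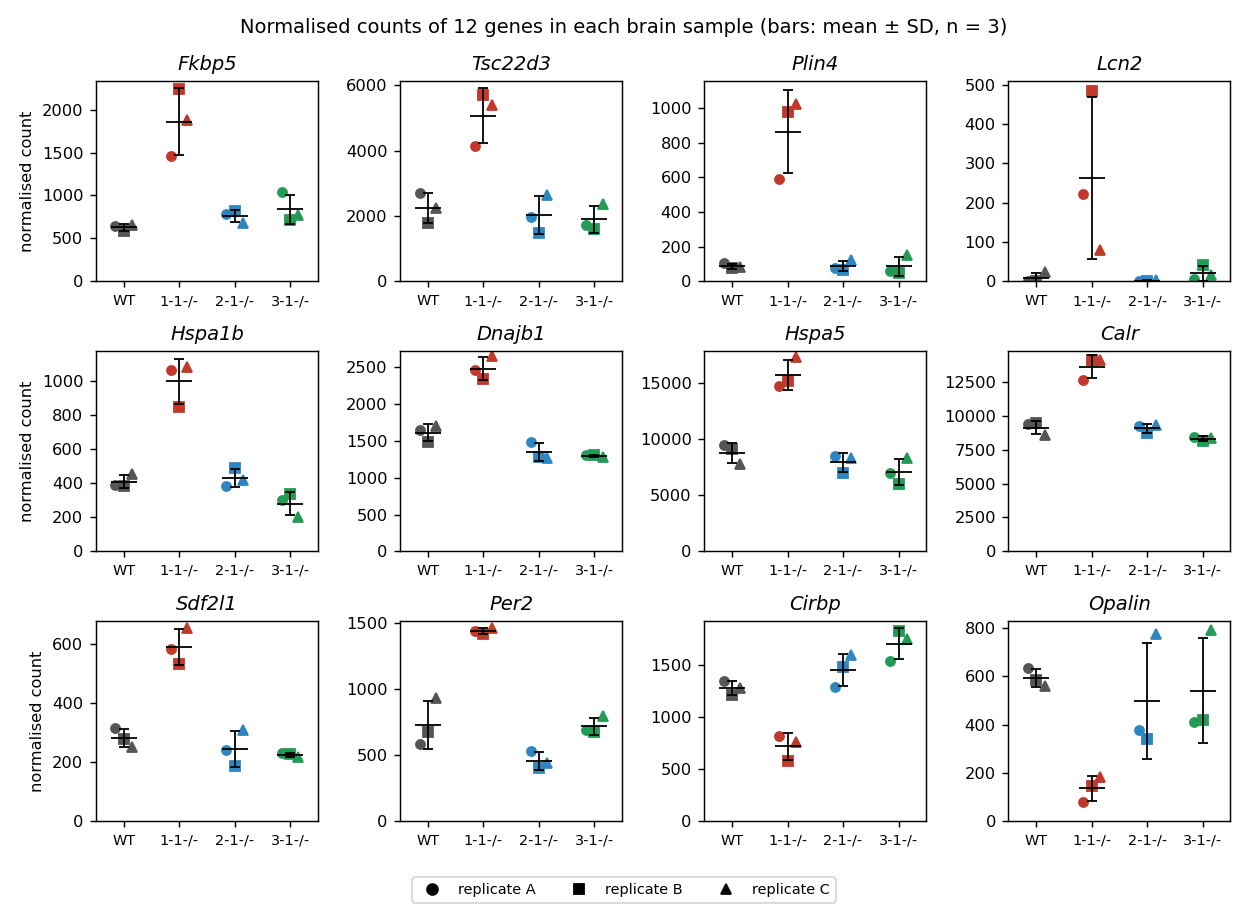
Normalised counts of 12 genes in each of the 12 brain samples, by genotype, with points for replicates A, B and C and bars for the mean ± SD (n = 3). The tRNA-Phe-1-1-/- samples lie above the WT samples for the first 10 genes and below them for Cirbp and Opalin, with no overlap, and the means of the other 2 knockout lines stand nearer to the WT mean in each.

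Cytosolic heat shock genes encode chaperones that hold or refold proteins outside the ER, under the transcription factor HSF1. Of 30 members tested, 9 rose and 0 fell, against 0.624% and 0.426% of all genes tested. Without overlap 22 were higher, against 12.8% of all genes tested. The median was 0.40 against WT and also 0.40 against the other 2 knockouts, where 15 members were called higher. The share of all genes called higher there was 1.58%. Without WT replicates A, B and C the number called was 4, 0 and 0, and without tRNA-Phe-1-1-/- replicates A, B and C it was 9, 2 and 0, with medians from 0.37 to 0.44.

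Dnajb1, the HSP40 partner of inducible HSP70, stood at 1644, 1480 and 1706 in WT and at 2459, 2337 and 2648 in tRNA-Phe-1-1-/- brains (0.62 ± 0.08, adjusted p = 0.0155). Hspa1b, an inducible HSP70 gene, stood at 391, 380 and 453 and at 1064, 844 and 1078 (1.28 ± 0.18, adjusted p = 0.0160). Its near-identical copy Hspa1a went from 383, 367 and 389 to 663, 522 and 679 (0.70 ± 0.15, adjusted p = 0.0549), and the division of reads between the copies is uncertain. Hspb1, a small heat shock protein gene, had the largest change of the list, from 209, 110 and 156 to 409, 365 and 496 (1.45 ± 0.27, adjusted p = 0.0376). In each of these genes the 3 knockout samples lay above the 3 WT samples.

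Co-chaperones of HSP70 and HSP90 moved less far. Hsph1, a nucleotide exchange factor, rose by 0.51, Stip1, which links HSP70 to HSP90, by 0.57, and Ahsa1, which stimulates the HSP90 ATPase, by 0.44. The HSP40 genes Dnaja1, Dnaja4 and Dnajb4 rose by 0.43, 0.44 and 0.49. The abundant chaperone genes Hspa8 (0.45 ± 0.10, adjusted p = 0.0585) and Hsp90aa1 (0.30 ± 0.10, adjusted p = 0.163) did not pass, and Hsf1 had 0.21 ± 0.08. Cirbp, an RNA-binding protein gene known to rise in the cold, was among the 20 largest falls, from 1352, 1218 and 1286 to 819, 577 and 766 (fell by 0.85, adjusted p = 0.0198), and it was also lower than in the other 2 knockouts (fell by 1.14, adjusted p = 0.00137).

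ER chaperones fold secreted and membrane proteins in the ER. Of 32 tested members, 7 rose and 0 fell, against 0.624% and 0.426% of all genes tested. Without overlap, 16 were higher and 1 lower, against 12.8% and 12.4% of all genes tested. The median was 0.22 in both comparisons, and 12 members were called higher than in the other 2 knockouts, against 1.58% of all genes. The 7 were Hspa5 (BiP), Hsp90b1 (GRP94), Calr (calreticulin), the disulfide isomerases Pdia4 and Pdia6, and the BiP cofactors Sdf2l1 and Dnajb11. The number called was 5, 2 and 0 without WT replicates A, B and C and 6, 2 and 0 without tRNA-Phe-1-1-/- replicates A, B and C, and the median ranged from 0.20 to 0.26.

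Hspa5 (chromosome 2, 34772090 to 34776529) stood at 9448, 9147 and 7782 in WT replicates A, B and C. It stood at 14754, 15119 and 17260 in tRNA-Phe-1-1-/- brains, and the groups did not overlap (0.84 ± 0.13, adjusted p = 0.0198). Calr rose from 9368, 9436 and 8605 to 12630, 14110 and 14109 (0.57 ± 0.07, adjusted p = 0.0103) and Pdia6 from 3027, 2992 and 2815 to 4455, 4490 and 5030 (0.66 ± 0.08, adjusted p = 0.0114). Sdf2l1 changed most, from 315, 279 and 252 to 583, 531 and 653 (1.06 ± 0.17, adjusted p = 0.0202). Pdia4, Hsp90b1 and Dnajb11 rose by 0.67, 0.49 and 0.39. Members that did not pass included Manf (0.67 ± 0.14, adjusted p = 0.0520), Creld2 (0.71 ± 0.16, adjusted p = 0.0670), Hyou1 (0.34 ± 0.08, adjusted p = 0.0798) and the lectin chaperone Canx (0.12 ± 0.09, adjusted p = 0.527).

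Regulators of the unfolded protein response were listed together with genes that serve the ER in other ways. Of 34 genes of this response, ER translocation and ER-associated degradation, 2 rose and 0 fell, with a median of 0.07. The shares of all genes tested were 0.624% and 0.426%. Xbp1, a transcription factor of the response, stood at 3037, 2776 and 2683 in WT and at 3605, 3740 and 4171 in the knockout (0.44 ± 0.08, adjusted p = 0.0393), and Derl3, a degradation factor, at 15.8 to 27.4 and at 74.5 to 82.2 (1.86 ± 0.30, adjusted p = 0.0218). Leaving out WT replicate B or C or tRNA-Phe-1-1-/- replicate B or C left 0 called, and leaving out WT replicate A left 1. The sensors Atf6 (0.01 ± 0.17) and Ern1 (0.16 ± 0.14) did not pass. Splicing of the Xbp1 transcript was not measured here.

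The integrated stress response was read from 32 genes, of which 30 were tested. Of these, 1 rose (Ddit4, also in the glucocorticoid list) and 0 fell, against 0.624% and 0.426% of all genes tested. Without overlap, 13 were higher, against 12.8% of all genes tested, and the median of the list was 0.21. Ddit4 did not pass without any one of WT replicates A, B and C or of tRNA-Phe-1-1-/- replicates B and C. Atf4 itself went from 2830, 2708 and 2900 to 3315, 3645 and 3227 (0.27 ± 0.09, adjusted p = 0.157), with no overlap. Atf3 went from 12.0, 12.7 and 4.51 to 33.2, 26 and 51.1 (1.87 ± 0.44, adjusted p = 0.0753). The targets Asns (0.00 ± 0.10), Chac1 (0.07 ± 0.17), Trib3 (-0.07 ± 0.48) and Sesn2 (0.10 ± 0.14) had differences smaller than their errors. Aldh18a1 (0.41 ± 0.10, adjusted p = 0.0818) and Slc7a5 (0.52 ± 0.14, adjusted p = 0.1055) were higher without overlap but did not pass. Of the 30 members tested, 24 had a positive log2 fold change.

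Promoters of the members that moved together were searched for the element of each pathway, in RefSeq windows (GRCm38.p6) from 250 bases before to 50 after the gene start, on both strands. The ER stress element, which ATF6 and NF-Y are known to bind, was searched as CCAAT and CCACG with 9 bases between them. It was present in 4 of the 7 ER chaperone genes that rose and in 8 of 29 list members with a window. Counted per gene in the same way, it was present in 0.162% of the 12335 tested genes with a window. Counted per window, it was present in 0.119% of all 32851 windows. The 250 bases before the start of Hspa5 (chr2:34771840-34772089, plus strand) and of Hsp90b1 (chr10:86705445-86705694, minus strand) are shown with the element in capitals, because these chaperones rose and each window holds it.
Hspa5: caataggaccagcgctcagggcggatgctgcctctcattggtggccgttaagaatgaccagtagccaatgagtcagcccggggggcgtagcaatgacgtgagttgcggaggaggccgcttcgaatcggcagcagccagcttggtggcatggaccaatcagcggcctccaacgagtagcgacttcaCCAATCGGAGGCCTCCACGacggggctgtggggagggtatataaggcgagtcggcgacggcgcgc
Hsp90b1: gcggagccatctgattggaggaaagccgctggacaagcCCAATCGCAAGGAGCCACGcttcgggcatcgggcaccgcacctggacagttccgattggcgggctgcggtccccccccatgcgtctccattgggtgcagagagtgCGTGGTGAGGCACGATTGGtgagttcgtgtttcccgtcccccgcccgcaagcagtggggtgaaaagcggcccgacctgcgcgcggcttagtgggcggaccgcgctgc
The Hspa5 match starts 65 bases before the gene, and Hsp90b1 holds 2 matches, the second on the opposite strand. Calr (chr8:84847075-84847093) and Pdia6 (chr12:17266491-17266509) hold 1 match each, shown with the fixed letters in capitals.
Calr: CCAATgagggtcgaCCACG
Pdia6: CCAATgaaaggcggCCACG
A heat shock element (GAA, TTC and GAA, each 2 bases apart) was found in 5 of 24 heat shock genes with a window. The share among tested genes with a window was 0.584%. Among the 9 heat shock genes that rose, only Hsph1 held it. A glucocorticoid response element (GNACA and TGTNC, 3 bases apart) was found in 4 of 34 genes of the glucocorticoid list with a window, against 0.413% of tested genes. Those that rose were Sgk1 (chr10:21993702-21993714), Mt1 (chr8:94178995-94179007) and Fam107a (chr14:8309885-8309897).
Sgk1: GaACAgaaTGTtC
Mt1: GgACAtgaTGTtC
Fam107a: GgACAtggTGTtC
A match is a description of the letters in these windows and not a measurement of binding. The lists hold known genes of each pathway, so matches in them could be foreseen without these samples. Their part in the rises was not tested.

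Clock genes were examined because the time of tissue collection can move them. Of 13 genes in phase with Dbp, 2 rose and 0 fell, against 0.624% and 0.426% of all genes tested, with a median of 0.26. Per2, a repressor in the clock, stood at 582, 677 and 931 in WT and at 1434, 1414 and 1460 in tRNA-Phe-1-1-/- brains (1.00 ± 0.16, adjusted p = 0.0202), and Per3 at 1580 to 1613 and 2069 to 2308 (0.44 ± 0.09, adjusted p = 0.0474). The number called was 1 without WT replicate C or tRNA-Phe-1-1-/- replicate A and 0 without any other library. Dbp (0.56 ± 0.13, adjusted p = 0.0695) and Ciart (0.84 ± 0.19, adjusted p = 0.0608) did not pass, and Nr1d1 had -0.07 ± 0.20. None of the 6 genes in phase with Bmal1 was called (0 of 6 by limma, 0 at an unadjusted p under 0.05, and 0 by edgeR and DESeq2), and their median was 0.01. In the liver samples of the same genotypes the difference in these genes was wide, with Dbp at 67.4, 28.7 and 67.5 in WT and 2776, 853 and 3069 in tRNA-Phe-1-1-/- mice. The times of collection are not given in the sources used here, so genotype and time of day cannot be told apart for these genes. The same holds for any other gene whose level changes over the day. Such genes may include members of the glucocorticoid, heat shock and ER chaperone lists, and Per1 is in both the clock and the glucocorticoid list.

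Immediate early genes, which neurons switch on with activity, gave 1 call of 24 against WT, Sik1, a salt-inducible kinase (276.5 ± 45.0 in WT and 645 ± 102 in the knockout, SD, n = 3). Sik1 passed without tRNA-Phe-1-1-/- replicate A but with none of the other 5 libraries left out. The median of the list was 0.13 against WT and 0.87 against the other 2 knockouts, where 10 members were called higher. The shares of all genes called higher were 0.624% against WT and 1.58% against the other 2 knockouts. Fos, for example, stood at 941, 483 and 1501 in WT and 1290, 850 and 1388 in the knockout, with means of 458 in tRNA-Phe-2-1-/- brains and 249 in tRNA-Phe-3-1-/- brains. WT and tRNA-Phe-1-1-/- samples thus overlapped for Fos, and both were above the mean of the other lines.

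**Figure D4:**
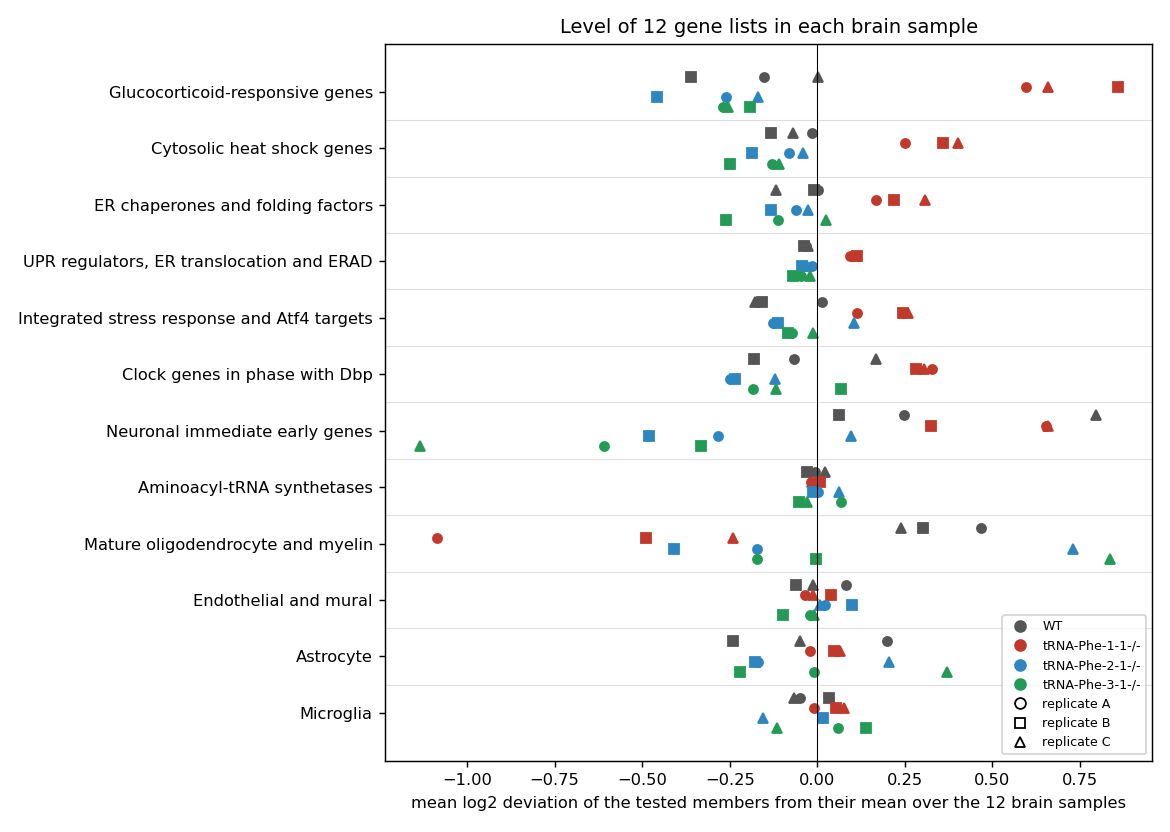
Mean log2 deviation of the tested members of 12 lists from their mean over the 12 brain samples, with one point per sample, colour for genotype and shape for replicate. The tRNA-Phe-1-1-/- samples lie to the right of the WT samples for the first 6 lists, to their left for the oligodendrocyte list (-1.09 to -0.24 against 0.24 to 0.47), and overlap them for the synthetase, endothelial, astrocyte and microglia lists.

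Markers of mature oligodendrocytes, the cells that make myelin, had lower values throughout. Opalin, a membrane protein of these cells, fell from 636, 584 and 560 to 80.2, 145 and 182 (fell by 2.19, SE 0.37, adjusted p = 0.0256) and was the only one of 29 members called. The share of all genes called lower was 0.426%. Opalin did not pass without any one of WT replicates A, B and C or of tRNA-Phe-1-1-/- replicates B and C. All 29 members had a negative log2 fold change, with a median of -0.97, and 24 were lower without overlap, against 12.4% of all genes tested. Mbp, a main protein of myelin, stood at 53491, 49537 and 44757 in WT and at 17998, 27208 and 31924 in the knockout (-0.97 ± 0.32, adjusted p = 0.171), and Mog at 1216 to 1494 and at 355 to 736 (-1.36 ± 0.35, adjusted p = 0.0961). In bulk tissue, fewer cells of a type and less RNA per cell cannot be told apart, and myelin content also differs between parts of the brain.

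Levels of the list also varied within genotypes. The summed counts of the list were 188190, 166270 and 157160 in WT and 62781, 102410 and 115160 in tRNA-Phe-1-1-/- replicates A, B and C, and they ranged from 89090 to 231910 in the other 2 lines. The lowest sum belonged to the replicate with high olfactory bulb and low striatal counts, and the median of the list was -0.70 without it. All 3 knockout sums lay below all 3 WT sums. Of 16 markers of precursors and newly formed cells, 0 were called by limma or edgeR, with a median of -0.08. Among them 2 reached an unadjusted p under 0.05 and DESeq2 called 1, against 3063 and 875 of all 19228 genes tested. Enpp6, a marker of newly formed oligodendrocytes, lay between 327 and 412 in WT and between 77.9 and 156 in the knockout (-1.86 ± 0.42, adjusted p = 0.0629).

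Blood vessel genes moved in both directions. Of 20 endothelial and mural markers, 1 rose and 3 fell, against 0.624% and 0.426% of all genes tested, with a median of -0.04. Cldn5, the main claudin of the blood-brain barrier, fell from 1218, 1427 and 1210 to 894, 843 and 899 (fell by 0.54, adjusted p = 0.0160). Tek, the angiopoietin receptor, fell by 0.47 and Itm2a by 0.58, whereas Ly6c1, a surface antigen of endothelial cells, rose from 617, 546 and 570 to 1035, 1304 and 903 (0.89 ± 0.12, adjusted p = 0.0160). The number called was 2, 1 and 0 without WT replicates A, B and C and 4, 1 and 1 without tRNA-Phe-1-1-/- replicates A, B and C. Hba-a1, a haemoglobin gene with a near-identical copy that makes its reads uncertain, stood at 3058, 3422 and 5327 in WT and 1967, 1786 and 1563 in tRNA-Phe-1-1-/- brains (-1.11 ± 0.36, adjusted p = 0.164), and 0 of 8 blood genes tested were called by limma or edgeR, while 5 reached an unadjusted p under 0.05 and DESeq2 called 4. None of 16 astrocyte, 15 microglia or 15 choroid plexus markers was called by limma or edgeR (0 each), with medians of 0.00, -0.03 and -1.68. In the same order, 3, 4 and 2 members reached an unadjusted p under 0.05 and DESeq2 called 0, 2 and 1. Among all 19228 genes tested, 3063 reached an unadjusted p under 0.05 and DESeq2 called 875.

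Of 19 GABA neuron markers, 15 glutamate neuron markers and 30 synaptic vesicle release genes, 1 each was called (5.26%, 6.67% and 3.33%). The share of all genes called was 1.05%, and each of these percentages rests on 1 gene. Syt2 belongs to the first and the last of these lists. Syt2, a calcium sensor of fast transmitter release, fell from 3482, 2217 and 2666 to 999, 1502 and 1324 (fell by 1.12, adjusted p = 0.0202), and its mean in the tRNA-Phe-3-1-/- line was also low at 1237. Rorb, a transcription factor of cortical layer 4 neurons, fell from 3714, 3800 and 3656 to 2314, 2486 and 1890 (fell by 0.75, adjusted p = 0.0114), with a mean of 2516 in the tRNA-Phe-3-1-/- line. Rorb passed except without WT replicate C, and Syt2 passed only without WT replicate B or without tRNA-Phe-1-1-/- replicate A or B. Tph2, the rate-limiting enzyme of serotonin synthesis in the brain, fell from 61.6, 29.6 and 72.2 to 9.17, 17.7 and 11 (fell by 1.98, adjusted p = 0.0407). It is made by raphe neurons, and the 3 knockout values were the lowest of the 6. Among 6 midbrain and hindbrain markers tested, 1 was called, as it was without WT replicate B or tRNA-Phe-1-1-/- replicate A, and 0 were called without any other library. None of the 29 glutamate and GABA-A receptor subunit genes was called by limma or edgeR (0 each), with a range of -0.62 to 0.34. Of these, 6 reached an unadjusted p under 0.05 and DESeq2 called 2, against 3063 and 875 of all 19228 genes tested. The lists for the striatum, cerebellum, hippocampus, thalamus, hypothalamus and olfactory bulb had 0 called members by limma and by edgeR, with medians of 0.78, -0.55, -0.67, -0.30, 0.47 and 1.92. Their members at an unadjusted p under 0.05 numbered 1, 2, 2, 0, 0 and 2, and DESeq2 called 1, 0, 2, 0, 0 and 1. The medians depended on single libraries: the striatum ranged from 0.19 without WT replicate C to 1.93 without tRNA-Phe-1-1-/- replicate A, the cerebellum from -1.82 without WT replicate B to -0.38 without WT replicate C, and the hippocampus from -1.24 to -0.37 without the same libraries. The thalamus ranged from -0.62 without WT replicate B to 0.14 without WT replicate A, the hypothalamus from -0.12 without WT replicate B to 0.69 without WT replicate C, and the olfactory bulb from 0.62 without tRNA-Phe-1-1-/- replicate A to 2.34 without replicate C. Without tRNA-Phe-1-1-/- replicate A, 1 striatal and 1 hippocampal gene were called.

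Genes closer to tRNA itself had small median differences and no calls by limma or edgeR. Of 21 aminoacyl-tRNA synthetase genes 0 were called by limma, edgeR or DESeq2 and 1 reached an unadjusted p under 0.05, with log2 fold changes from -0.42 to 0.17 and a median of 0.01. The subunits of phenylalanyl-tRNA synthetase, Farsa (0.06 ± 0.10) and Farsb (0.09 ± 0.10), and the mitochondrial enzyme Fars2 (-0.11 ± 0.11) changed by about their errors. Genes for modification of tRNA-Phe and for transcription by RNA polymerase III (0 of 27 called, median 0.03) and for stalled ribosomes and elongation (0 of 27 called, median 0.06) were also without calls by limma and edgeR. In these lists 1 and 5 members reached an unadjusted p under 0.05, and DESeq2 called 0 and 1. Among all 19228 genes tested the numbers were 3063 and 875. Gtpbp2, a rescue factor for paused ribosomes, had 0.30 ± 0.08 (adjusted p = 0.116), and Gtpbp1 had 0.19 ± 0.12. Of the 27 genes for stalled ribosomes and elongation, 20 had a positive log2 fold change, and without overlap 7 were higher and 2 lower. Without overlap 3 synthetase genes were higher and 1 lower, and 0 genes of the modification and transcription list were either. The shares of all genes tested were 12.8% higher and 12.4% lower.

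Whether genes for phenylalanine-rich proteins changed was asked in 2 ways. The 5 genes of interest chosen for a high share of phenylalanine were not called (0 by limma, edgeR or DESeq2, and 0 at an unadjusted p under 0.05): Calb1 had -0.09 ± 0.21, Calb2 0.45 ± 0.98, Ncald -0.07 ± 0.18, Slc32a1 0.56 ± 0.26 and Capza1 0.05 ± 0.16. Calb2 varied within the knockout, at 1674 in tRNA-Phe-1-1-/- replicate A against 230 and 381 in replicates B and C. Across the 14834 tested genes with a coding sequence, phenylalanine codons made up a median of 3.60% of the codons, against 3.55% in 115 called rises and 3.52% in 56 called falls. The plot by phenylalanine content, in 4 groups of genes, shows medians from 0.001 to 0.019 on the log2 scale, and 1.22% of the genes in the highest group were called against 1.13% in the lowest. RNA levels do not measure translation, so an effect on protein was not analysed here.

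**Figure D5:**
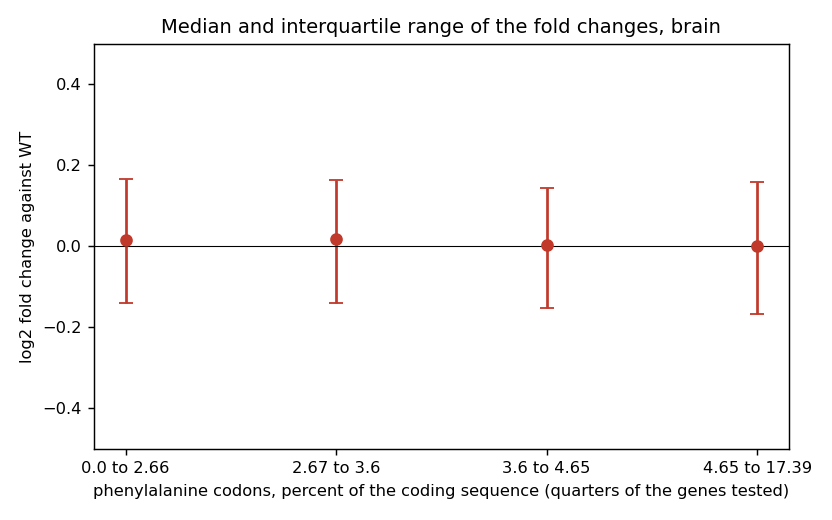
Median log2 fold change in tRNA-Phe-1-1-/- against WT brains (points) with the interquartile range (bars) for 4 groups of the genes tested, ordered by the percentage of phenylalanine codons. All 4 medians lie within 0.02 of 0.

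None of 23 cholesterol synthesis genes was called (0 by limma, edgeR or DESeq2, and 2 at an unadjusted p under 0.05), with a median of -0.10. Beyond the lists, the lowest p-values belonged to genes of several kinds. Stx17, a SNARE protein of autophagosomes, fell from 966, 909 and 975 to 592, 604 and 526 (fell by 0.73, adjusted p = 0.00813). Gpt2, a mitochondrial alanine transaminase, rose, with 1827 to 1860 in WT and 2849 to 3174 in the knockout (0.68 ± 0.08, adjusted p = 0.00813), and P4ha1, the catalytic subunit of collagen prolyl hydroxylase, likewise, with 1824 to 1934 and 2886 to 3289 (0.73 ± 0.09, adjusted p = 0.0114). Banp, a DNA-binding protein gene, rose from 805, 651 and 756 to 1348, 1344 and 1319 (0.86 ± 0.11, adjusted p = 0.0114). For these 4 genes the knockout samples did not overlap WT and differed in the same direction from the other 2 lines (adjusted p = 0.00856, 0.00137, 0.00115 and 0.00166 for Stx17, Gpt2, P4ha1 and Banp).

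Among the 20 largest rises were also Acer2, an alkaline ceramidase (132, 136 and 139 in WT and 383, 468 and 290 in the knockout), Mc4r, the melanocortin receptor that controls feeding (26.4 to 60.7 and 104 to 163), and Dok3, an adaptor protein of immune receptors (161 to 168 and 330 to 362). The 20 largest falls ranged from -2.19 to -0.81 on the log2 scale and included Rspo1, an enhancer of Wnt signalling (161 to 284 and 76.2 to 92.8), Atn1, the atrophin 1 gene (447 to 692 and 207 to 257), Trim59, a ubiquitin ligase (365 to 402 and 129 to 182), Hunk, a kinase (737 to 1016 and 359 to 426), and Slc40a1, the iron exporter ferroportin (498 to 576 and 291 to 327). Rspo1 was the 1 called member of 19 Wnt genes tested, and 1 was called without WT replicate B or tRNA-Phe-1-1-/- replicate A and 0 without any other library. Atn1 and Rspo1 did not pass against the other 2 knockouts (adjusted p = 0.121 and 0.0596).

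The called genes were last looked up in the liver table, which the authors normalised on its own. Of the 120 genes that rose in the brain, 60 (50.0%) were higher in all 3 tRNA-Phe-1-1-/- livers than in all 3 WT livers. Of the 82 that fell, 16 (19.5%) were lower in the same way. Among all brain genes tested, 18.1% showed the same direction without overlap. The opposite direction without overlap was seen for 8 of the 120, 5 of the 82 and 1905 of all 19228 genes tested. Fkbp5 stood at 797, 652 and 681 in WT livers and at 3040, 3238 and 3338 in tRNA-Phe-1-1-/- livers, and Hspa5 at 27069 to 32075 and at 40623 to 58512. Cirbp stood at 490 to 667 and at 138 to 216. Whether the brain and liver samples came from the same mice is not given in the sources used here.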

How the data were processed

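RNA-seq of total RNA was performed by the authors, and samples were grouped by the titles. According to its methods, reads were trimmed (Trim Galore) and aligned to GRCm38.p6 (STAR), and the authors estimated transcript abundance with Salmon in strand-aware mode, summed them to genes with tximport and fitted DESeq2 per tissue. The deposited brain table is a signal of normalised counts, for which the authors scaled the estimated counts by a DESeq2 size factor for each sample. The deposited tables of the authors' comparisons hold fold changes and s-values and were not used. All brain values were whole multiples of a step per sample (100% within 0.01 of a read), which gave the reads behind each sample and the count tests used as alternatives. Division of reads between close copies by Salmon and the size factors can affect single genes.

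Genes whose mean over the 12 brain samples reached 10 normalised counts were tested. Values were transformed as log2(x + 1) and fitted in limma 3.58.1 under R 4.3.3 (variance trend, all 4 genotypes in one fit, two-sided, Benjamini-Hochberg, threshold 0.05). Fold changes on this scale understate the change of low genes, and a ± after one is its SE. No overlap means that every sample of one group lies above every sample of the other. P-values set the difference of the group means against a spread estimated from all 12 brain samples and moderated by the variance trend. The number of reads limits low genes. In simulated brain counts of tRNA-Phe-1-1-/- against WT (19042 genes), limma recovered 68 of 100 genes changed 2-fold and 92 of 100 changed 4-fold, with 11 false calls. Only genes with a mean of at least 50 were changed, and counts were drawn for each gene on its own. Differences between libraries that many genes share, as in the marker lists, were not simulated. These numbers therefore do not give the error rate in the real samples.

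Symbols (93.2% of identifiers) and coding sequences came from GENCODE vM39, and positions and promoters from RefSeq for GRCm38.p6. The members and lists were chosen with earlier results of these data known. Genes were named by a rule: the 20 largest rises and falls among called protein-coding genes with a mean of at least 50, the 10 lowest p, called members of the lists, the first 4 and the 4 lowest p of each list, the phenylalanine genes and the neighbours of the deletion. Per-sample values of Drd1, Cdhr1, Snap25, Kap and Slc34a1 and further members of the lists were chosen after values were seen, as were the kidney and liver lists. Alternatives were other pseudocounts, filters, normalisations, variance models and samples, the replicate letter as a block, edgeR 4.0.16 and DESeq2 1.42.0 on the recovered reads, and each replicate left out. Some genes that the rule selects are not reported here.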

Additional observations from a re-analysis of the deposited data

Results flagged for a closer look

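2 of the named genes moved in opposite directions in the brain and the liver, with no overlap between tRNA-Phe-1-1-/- and WT samples in either tissue. This contrast of tissues was not tested, because the tables were normalised separately. Smim3, a small membrane protein gene, had a log2 fold change of 1.01 in the brain (173 to 193 normalised counts in WT and 302 to 469 in the knockout) and stood at 41.5 to 53.2 in WT livers and 16.9 to 37.9 in tRNA-Phe-1-1-/- livers. Amn, a partner of the vitamin B12 receptor, had -0.96 in the brain (88.1 to 120 and 53.0 to 55.0) and stood at 0 to 1.30 and 1.76 to 3.07 in the livers, a level of a few reads.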

How the results depend on the processing

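Against WT, 202 genes were called. The count was 95 with no filter on low values, 103 with no variance trend, 1356 with array weights and 875 with DESeq2 on the recovered reads, and ranged from 5 to 163 with a replicate left out. Of the 202 genes, 91, 93, 202 and 201 were among the calls of the first 4 of these settings in this order. With only the groups compared 151 genes were called, 91 of them among the 202, and 31 of the 77 named calls were lost. EdgeR on the recovered reads called 187, 180 of them among the 202, and the remaining settings 173 to 207. Against the other 2 knockouts, 469 genes were called, 293 with no filter, 1069 with array weights, 217 with only the groups compared and 1292 with DESeq2, and 48 to 463 with a replicate left out. All 202 genes called against WT kept their direction in every alternative run for that comparison. With a replicate left out this was fixed in advance, because their groups did not overlap. The replicate letters did not pair the samples (correlations of deviations of -0.07, 0.05 and -0.10 between same-lettered WT and tRNA-Phe-1-1-/- samples, and -0.16 to 0.49 over all same-lettered pairs). With the replicate block 173 genes were called against WT, 123 of them among the 202, with 20 of the 77 named calls lost, and 406 against the other 2 knockouts. Leaving out a library removes samples as well as that library's values, and the cause of the other shifts was not tested.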
